A study of Homo sapiens with 26 samples.

Results

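The genes described here are targets of the transcription factor ATF4 and the cytosolic aminoacyl-tRNA synthetases, many of which are ATF4 targets themselves. Members were chosen by gene symbol from a list of 52, 19 synthetases and 33 other ATF4 targets including ATF4 itself. Of these, 47 were listed and tested in each of the 3 expression tables, all 19 synthetases and 28 of the 33 others, among 11673 to 11823 genes tested per table. PHGDH, ALDH1L2, SLC6A9, NUPR1 and CBS are not listed in the tables used here, and no value is given for them.

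When unfolded protein, amino acid shortage, haem shortage or viral RNA activates one of the kinases of the integrated stress response, the translation factor eIF2 is phosphorylated and most protein synthesis slows. The mRNA of ATF4 is then translated better, so ATF4 protein can rise with little change of its mRNA. ATF4 binds with partners such as the C/EBP proteins and induces genes for amino acid synthesis and uptake, for tRNA charging, and for feedback on the response itself. Synthetases join each amino acid to its tRNA, and those of the cytosol and of the mitochondrion are mostly made from separate genes.

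The cells were of the line 786-O, from a human renal carcinoma of clear cell type that lacks functional VHL, transfected with siRNA, split at 24 h and harvested at 48 h for poly(A) RNA sequencing. The knocked-down genes code for proteins of nuclear speckles, per the study's design text, namely SART1 (siRNA 4 and siRNA 6), DDX39A (siRNA 1 and siRNA 4), SARNP (siRNA 3 and siRNA 9), FIBP (siRNA 6 and siRNA 7) and TMEM259 (siRNA 5 and siRNA 6). Each of the 10 siRNAs gave 2 libraries, and each of 3 tables has its own 2 control libraries of non-targeting siRNA, 1 table for SART1, 1 for DDX39A with SARNP and 1 for FIBP with TMEM259. All groups are of 1 cell line, separate cultures for the 2 libraries of a group are not stated, and p-values then measure the spread between libraries, which may be technical.

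Libraries held between 8966609 and 26128173 reads in genes. Those of the SART1 table held at least 21710821, and all others at most 18086176. The part of this depth in the counts of called genes was not tested. The targeted mRNA fell to between 8.56% and 48.4% of its controls, highest with TMEM259 siRNA 6 and lowest with SARNP siRNA 9. The renal lineage markers PAX8, PAX2, EPAS1, KRT8, KRT18, VIM and CDH6 were listed in every table. Of these 7, 5 were called lower with SART1 siRNA 4, beside 28.22% of all tested genes. With DDX39A siRNA 4, 6 were called higher, beside 25.25%, and with DDX39A siRNA 1, 5 were, beside 17.07%. The 2 SARNP siRNAs called 5 in opposite directions, beside 1517 of 11673 genes. All 7 were called, in mixed directions, with SARNP siRNA 3, SARNP siRNA 9 and FIBP siRNA 7. The part of this in the results was not tested. PTPRC, PECAM1, VWF and ALB, markers of leukocytes, endothelium and liver, are not listed in the tables used here. Of the other cell type markers, CD68, COL1A1 and EPCAM were tested, and with each siRNA at most 1 of these 3 was called higher and at most 2 lower. Across the siRNAs, 9.364% to 32.49% of all genes were called higher and 10.03% to 30.46% lower. The part of these 3 markers in the results was not tested. Values are normalized reads, that is, reads divided by 1 factor per library, and changes are differences of log2(value + 1). A gene is called higher or lower at a Benjamini-Hochberg adjusted p below 0.05 over all tested genes in limma. In bulk RNA, fewer cells with an mRNA and less of it per cell cannot be told apart.

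The element through which ATF4 and C/EBP partners act has the letters TGATGNAA, and the start-site regions of the members were searched for it. Members were listed by symbol as ATF4 targets or synthetases, so the share with this element is not independent of that choice. RefSeq start windows (GRCh38.p14, 250 bases before to 50 after each start, both strands searched) matched 41 of the 52 members. It was found in 7 of 16 synthetases (43.8%), in 6 of 25 other targets (24%) and in 1217 of all 27305 genes of that collection (4.46%). The synthetases were AARS, CARS, GARS, IARS, MARS, NARS and TARS, and the others were CEBPG, CHAC1, ASNS, SLC3A2, SLC7A1 and SLC1A5. The cAMP response element TGACGTCA, which shares no full match with the first motif, was found in PPP1R15A alone among the matched members, against 614 genes in all (2.25%). The stretches of up to 30 bases with a motif wholly before the nearest start are shown 5′ to 3′ in the gene's direction, with the motif or its reverse complement in capitals.
AARS, 187 bases before a start, chr16:70289675-70289704, minus strand: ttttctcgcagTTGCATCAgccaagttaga
GARS, 33 bases before, chr7:30594834-30594863, plus strand: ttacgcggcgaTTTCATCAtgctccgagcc
IARS, 13 bases before, chr9:92293698-92293721, minus strand: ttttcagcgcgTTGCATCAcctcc
CEBPG, 42 bases before, chr19:33374060-33374089, plus strand: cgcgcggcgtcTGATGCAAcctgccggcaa
CHAC1, 209 bases before, chr15:40953251-40953280, plus strand: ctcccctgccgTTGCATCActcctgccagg
ASNS, 68 bases before, chr7:97872458-97872487, minus strand: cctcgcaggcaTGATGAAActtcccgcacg
SLC1A5, 97 bases before, chr19:46784893-46784922, minus strand: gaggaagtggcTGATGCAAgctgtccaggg
PPP1R15A, 58 bases before, chr19:48872352-48872381, plus strand: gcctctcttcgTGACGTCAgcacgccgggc
A match describes letters in a window and is not a measured binding site. The stretches of AARS, GARS, IARS, CHAC1, ASNS and SLC1A5 also overlap an exon of some transcript in GENCODE v29. The gene, strand and start of that transcript were not checked.

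The 47 members did not move as 1 block under any knockdown. The heat map of all members shows synthetases mostly higher with both SART1 siRNAs, and SLC7A11 called in opposite directions by the 2 siRNAs of DDX39A and of SARNP. All siRNAs changed many genes of the transcriptome, so counts of members are read against the share of all tested genes called the same way.

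**Figure D1:**
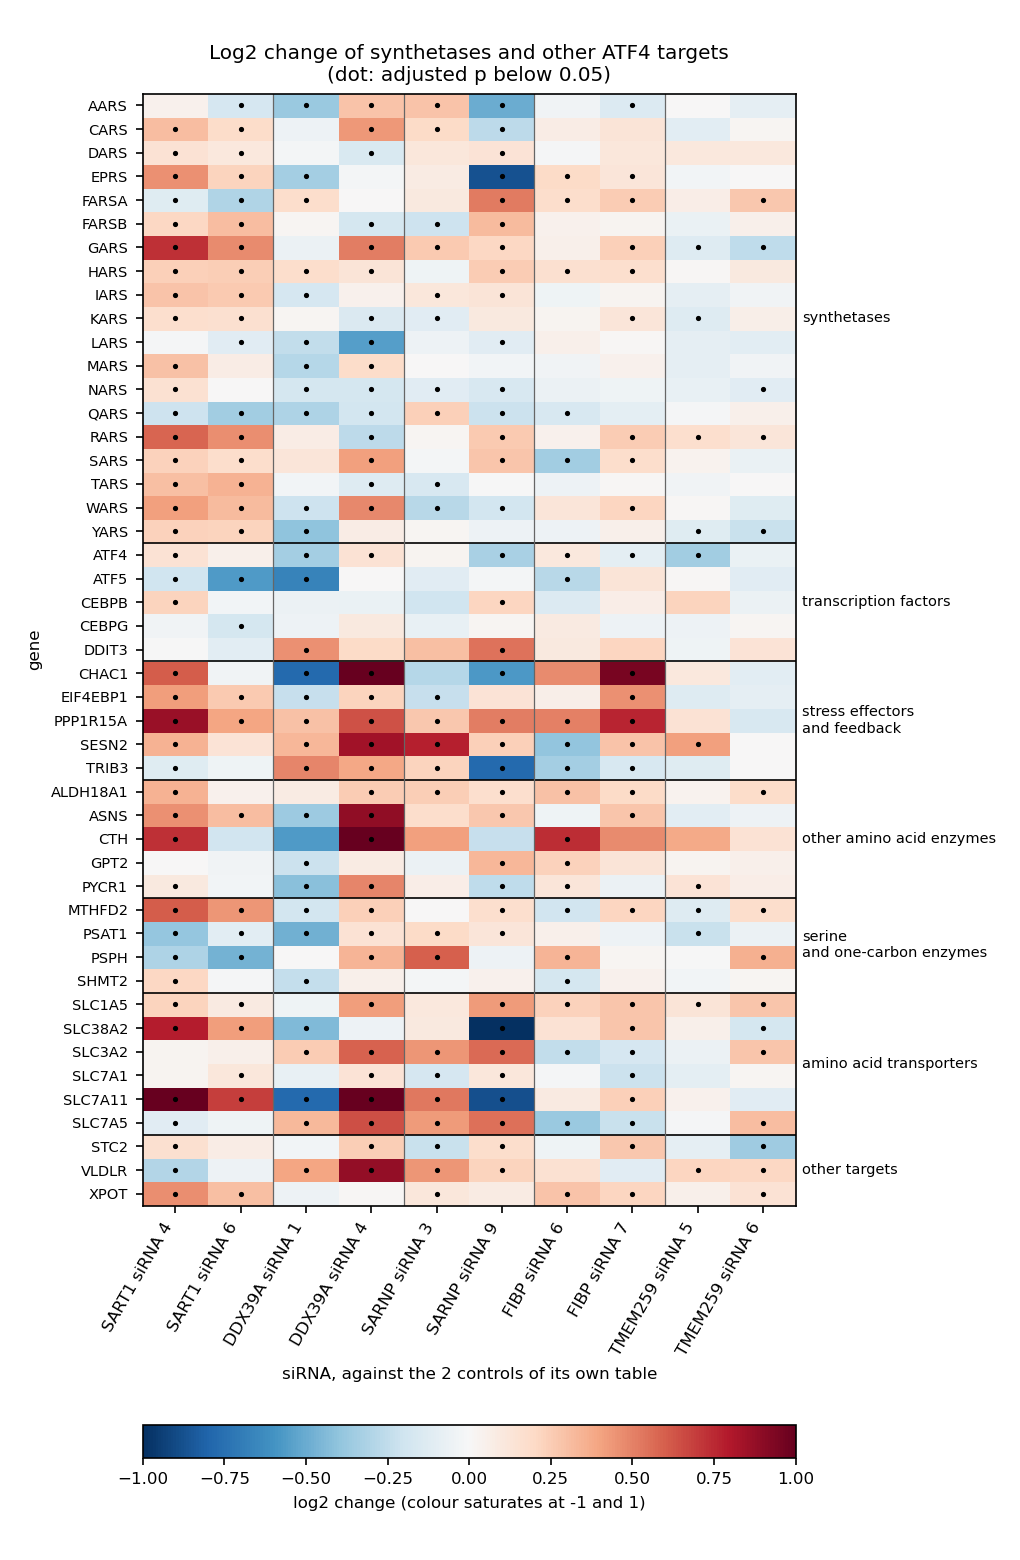
Log2 change of the 47 listed members (rows, grouped by role) with each of the 10 siRNAs (columns) against the 2 controls of the same table; red is higher, blue lower, and a dot marks an adjusted p below 0.05. Synthetases are called higher most often in the 2 SART1 columns (15 and 13 of 19), beside 29.49% and 32.49% of all genes. These siRNAs also call the highest shares of all genes higher. SLC7A11 is called higher with DDX39A siRNA 4 and lower with DDX39A siRNA 1.

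**Figure D2:**
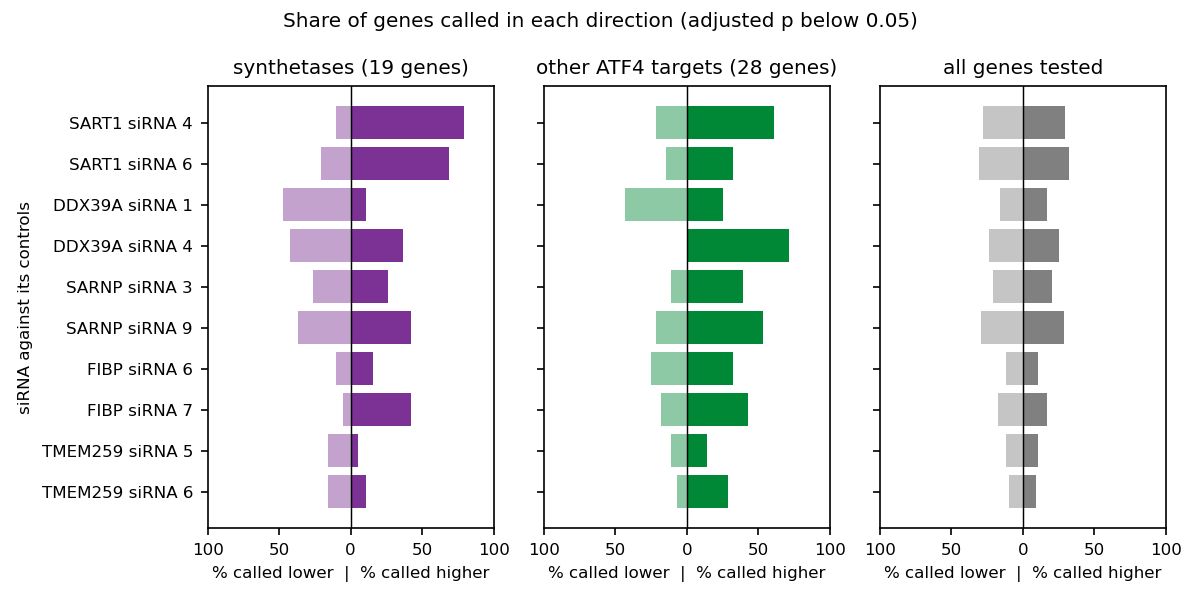
Percent of the 19 synthetases, of the 28 other ATF4 targets and of all tested genes called higher (right, dark) or lower (left, pale) with each siRNA. The other ATF4 targets with DDX39A siRNA 4 have 20 called higher and 0 called lower, and all tested genes are split nearly evenly with every siRNA.

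SART1 is a component of the spliceosomal tri-snRNP. With its knockdown, most cytosolic synthetases rose. With siRNA 4, 15 of 19 were called higher and 2 lower, beside 29.49% and 28.22% of all tested genes, and the median change of the synthetases was 0.23 against -0.01 for all genes. With siRNA 6, 13 were called higher and 4 lower, beside 32.49% and 30.46%, with a median of 0.18 against -0.002. Both siRNAs called 13 of 19 (68.4%) higher and 2 lower, beside 22.91% and 19.98% of all genes. Under quantile normalization the count called by both was 7 higher and 3 lower, the medians were 0.12 and 0.059, and DARS and KARS, called higher by both siRNAs, stood at -0.034 and -0.0 with siRNA 6, where the sign of both had turned. Both siRNAs share the same 2 control libraries.

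GARS, which charges glycine and whose gene also makes the mitochondrial enzyme, stood at 8036 and 8191 normalized reads in the control libraries, 12993 and 13952 with siRNA 4, and 10992 and 11515 with siRNA 6. All 4 knockdown libraries lay above both controls, and the siRNA 4 libraries lay highest. RARS, for arginine, was 6333 and 6605 in controls, 9598 and 9785 with siRNA 4, and 8819 and 9062 with siRNA 6, a log2 change of 0.58 (SE 0.034, adjusted p = 8.6e-13) and 0.47 (SE 0.034, adjusted p = 3.8e-11). WARS, for tryptophan, rose from 1777 and 1753 to 2284 and 2411 with siRNA 4 (log2 change 0.41) and to 2250 and 2140 with siRNA 6 (0.31). In GARS and RARS the 2 siRNAs differed, by 0.26 (adjusted p = 3.6e-06) and 0.12 (adjusted p = 0.0084), and in WARS the difference of 0.10 did not pass (adjusted p = 0.091).

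TARS, for threonine, was 13207 and 12953 in controls and between 16002 and 16798 in the 4 knockdown libraries, with changes of 0.30 and 0.35 (SE 0.030 each). IARS, for isoleucine, was 15189 and 14797 in controls and between 17752 and 18492 after knockdown, with changes of 0.28 and 0.26. HARS, for histidine, was 4252 and 4338 in controls and between 5002 and 5171 after knockdown, with changes of 0.24 and 0.25. In these 3 genes no knockdown library overlapped the controls, and the difference between the siRNAs did not pass the test. The HARS call with siRNA 6 had an adjusted p of 0.075 under quantile normalization, and exons of HARS share 402 bases with those of its mitochondrial neighbour HARS2 on the other strand.

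QARS, for glutamine, and FARSA, the alpha chain of the enzyme for phenylalanine, fell with both siRNAs. QARS was 3327 and 3411 in controls, 2952 and 2873 with siRNA 4 and 2664 and 2629 with siRNA 6, changes of -0.21 (adjusted p = 7.3e-05) and -0.35 (adjusted p = 5.2e-08). FARSA was 4101 and 4016 in controls, 3806 and 3671 with siRNA 4, and 3416 and 3187 with siRNA 6, changes of -0.12 (adjusted p = 0.015) and -0.30 (adjusted p = 8.1e-07). FARSB, the beta chain of the same enzyme, was called higher with both siRNAs (0.20 and 0.31), so the 2 chains of 1 enzyme were called in opposite directions. Without control library 1 or without siRNA 4 library 2, the siRNA 4 call of FARSA did not pass (adjusted p = 0.097 and 0.093).

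**Figure D3:**
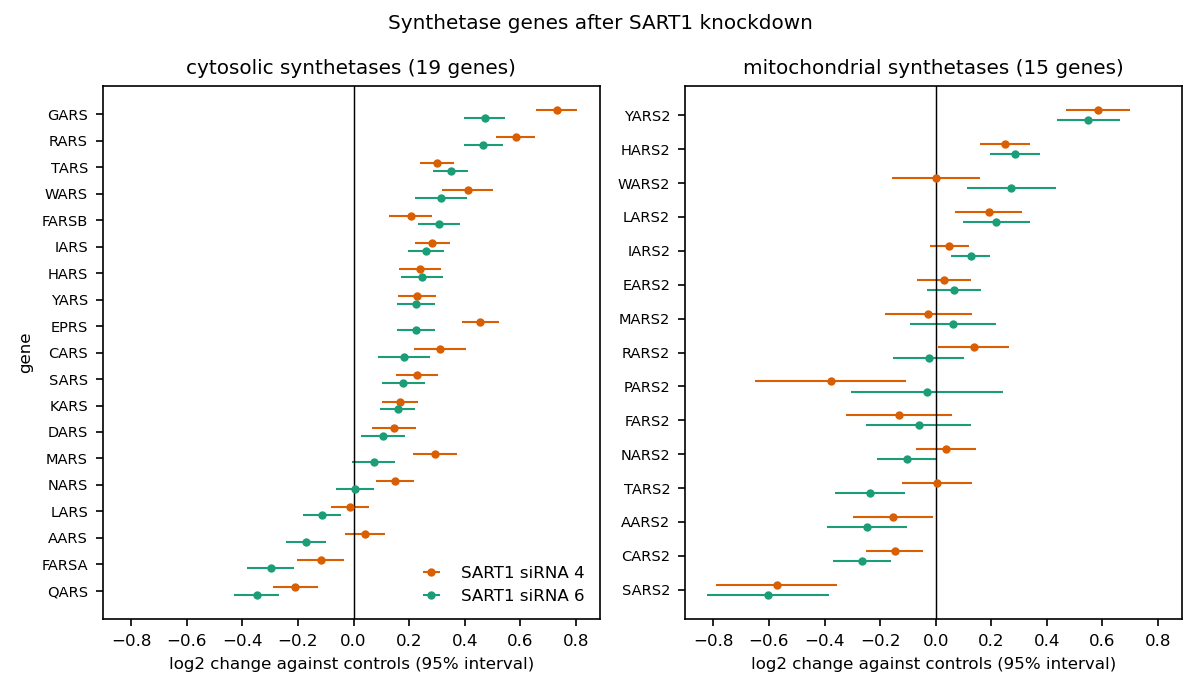
Log2 change against controls (points) with 95% intervals from limma (bars) for the 19 cytosolic synthetase members and 15 of the mitochondrial synthetases after SART1 siRNA 4 (orange) and siRNA 6 (green). The cytosolic genes lie mostly to the right of 0, from GARS (0.73 and 0.47) to QARS (-0.21 and -0.35), and the mitochondrial genes lie on both sides, from YARS2 (0.58 and 0.55) to SARS2 (-0.57 and -0.60).

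Of 16 mitochondrial synthetases tested, both SART1 siRNAs called 3 higher and 3 lower, near the shares of all genes (22.91% and 19.98%), with YARS2 at 0.58 and 0.55 and SARS2 at -0.57 and -0.60. Of 4 scaffold and further cytosolic genes, AIMP1, a scaffold protein of the multisynthetase complex, was called higher with both (0.22 and 0.19).

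Among the 28 other ATF4 targets, SART1 siRNA 4 called 17 higher and 6 lower (median 0.18), beside 29.49% and 28.22% of all genes. SART1 siRNA 6 called 9 higher and 4 lower (median 0.01), beside 32.49% and 30.46%. The 32.1% called higher with siRNA 6 was thus near the share of all genes. Both siRNAs called 8 higher (28.6%) and 3 lower (10.7%), beside the same 22.91% and 19.98% of all genes, so the higher count was not far from that share. The 8 that rose were SLC7A11, MTHFD2, SLC38A2, PPP1R15A, ASNS, XPOT, EIF4EBP1 and SLC1A5. With DESeq2 on recovered reads the split was 8 higher and 1 lower.

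SLC7A11, the light chain of the cystine-glutamate exchanger, was 648.7 and 625.9 in controls, 1265 and 1367 with siRNA 4, and 1073 and 984.4 with siRNA 6, changes of 1.04 and 0.69 (SE 0.059 each). SLC38A2, a sodium-coupled transporter of neutral amino acids, was 1991 and 1868 in controls, 3280 and 3378 with siRNA 4 and 2540 and 2619 with siRNA 6, changes of 0.79 and 0.42. In both transporters every knockdown library lay above the controls and the siRNA 4 libraries lay above those of siRNA 6. PPP1R15A, the stress-induced subunit that directs a phosphatase to eIF2, was 976.1 and 976.9 in controls, 1829 and 1720 with siRNA 4 and 1301 and 1265 with siRNA 6, changes of 0.86 and 0.39 (SE 0.050 each). ASNS, asparagine synthetase, was 785.8 and 852.1 in controls, 1086 and 1168 with siRNA 4 and 972.8 and 1052 with siRNA 6, changes of 0.46 and 0.31.

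MTHFD2, a mitochondrial enzyme of one-carbon metabolism, changed by 0.61 and 0.44, XPOT, the exporter of tRNA from the nucleus, by 0.47 and 0.30, and EIF4EBP1, an inhibitor of cap-dependent translation, by 0.42 and 0.26. SLC1A5, a glutamine transporter, changed by 0.22 and 0.09, and its siRNA 6 call did not pass without control library 1 (adjusted p = 0.15) or siRNA 6 library 1 (adjusted p = 0.17) and turned to -0.059 under quantile normalization. The other 3 of the 11 fell with both siRNAs, and 2 of them belong to serine synthesis. PSPH, its last enzyme, was 463.4 and 507.0 in controls, 408.0 and 376.8 with siRNA 4 and 348.9 and 350.0 with siRNA 6, changes of -0.31 (adjusted p = 0.002) and -0.47 (adjusted p = 1.7e-05). PSAT1, the transaminase before it, changed by -0.39 and -0.10. Its siRNA 6 call did not pass without any 1 of the control or siRNA 6 libraries, or with DESeq2 (adjusted p = 0.075). ATF5, a transcription factor induced by ATF4, changed by -0.20 and -0.57. Its siRNA 4 call did not pass without control library 2 (change of -0.12) or siRNA 4 library 2 (-0.19). It also did not pass with DESeq2 (adjusted p = 0.1) or under quantile normalization (adjusted p = 0.052).

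The 2 SART1 siRNAs differed in 31 of 47 members, 28 of them higher with siRNA 4, beside 38.51% of all genes that differed. With DESeq2 the count was 21, 19 of them higher with siRNA 4, and the share of all genes was not computed there. CTH, which makes cysteine from cystathionine, was 66.1 and 73.1 in controls, 112.8 and 118.7 with siRNA 4 and 57.5 and 64.5 with siRNA 6, and the siRNAs differed by 0.91 (SE 0.163, adjusted p = 8.9e-05). CHAC1, a glutathione-degrading enzyme of the ATF4 pathway, was 49.3 and 64.3 in controls, 74.3 and 99.9 with siRNA 4 and 53.7 and 56.4 with siRNA 6, a difference of 0.64 between siRNAs (adjusted p = 0.012). In both genes the siRNA 4 libraries lay above all others of the SART1 table. The siRNA 4 call of CHAC1 (0.60) did not pass without control library 1 or siRNA 4 library 2 (changes of 0.42 and 0.39), or with DESeq2 (adjusted p = 0.077). ATF4 itself was 7453 and 7648 in controls, 8079 and 8620 with siRNA 4 (0.14, adjusted p = 0.0012) and 7790 and 7830 with siRNA 6 (0.05, adjusted p = 0.23), and the siRNA 4 change was 0.05 under quantile normalization (adjusted p = 0.23).

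Around these members, and beside the same 22.91% and 19.98% of all genes called higher and lower by both siRNAs, 13 of 15 genes of the ATF6 and XBP1 arms of the unfolded protein response were called higher and 0 lower with both SART1 siRNAs, among them DNAJB9, a chaperone partner of the endoplasmic reticulum (0.67 and 0.70). Of 17 genes upstream in the integrated stress response 8 were called higher and 3 lower, with EIF2AK3, the kinase PERK, at 0.76 and 0.72 and IMPACT, an inhibitor of the kinase GCN2, at -0.43 and -0.68. Of 16 further ATF4-linked genes 7 were called higher and 2 lower, with the stress factor ATF3 at 0.85 and 0.85.

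DDX39A is a helicase of mRNA export, and its 2 siRNAs differed in 40 of the 47 members. With siRNA 4, 20 of 28 other ATF4 targets rose and 0 were called lower, with a median change of 0.25 (0.004 for all genes), beside 25.25% of all genes called higher and 23.75% lower. With siRNA 1, 7 were called higher and 12 lower, with a median of -0.07, beside 17.07% and 16.12%. Between the siRNAs, 23 of 28 were lower with siRNA 1 than with siRNA 4, 0 were higher, and the median difference was -0.37, while 50.57% of all genes differed in either direction. Both siRNAs left DDX39A mRNA at 14% and 16.6% of its controls.

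The largest differences were in SLC7A11, CHAC1, CTH and ASNS. SLC7A11 was 468.9 and 515.8 in controls, 264.7 and 311.7 with siRNA 1 and 1445 and 1335 with siRNA 4, changes of -0.77 (SE 0.081, adjusted p = 1.1e-09) and 1.5 (SE 0.081, adjusted p = 5.9e-18). CHAC1 was low throughout, at 35.0 and 39.5 in controls, 28.0 and 16.0 with siRNA 1 and 110.6 and 110.7 with siRNA 4, changes of -0.78 and 1.55 (SE 0.252 each). ASNS was 340.5 and 365.2 in controls, 267.3 and 280.8 with siRNA 1 and 686.6 and 618.7 with siRNA 4, changes of -0.36 and 0.88. In these 3 genes the siRNA 1 libraries lay below and the siRNA 4 libraries above both controls. CTH was 31.8 and 29.9 in controls, 20.4 and 20.6 with siRNA 1 (-0.57, adjusted p = 0.061, not called) and 75.8 and 71.1 with siRNA 4 (1.22, adjusted p = 4.3e-05). The siRNA 1 call of CHAC1 did not pass without control library 2 (adjusted p = 0.11), without siRNA 1 library 2 (adjusted p = 0.3) or with DESeq2 (adjusted p = 0.14).

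**Figure D4:**
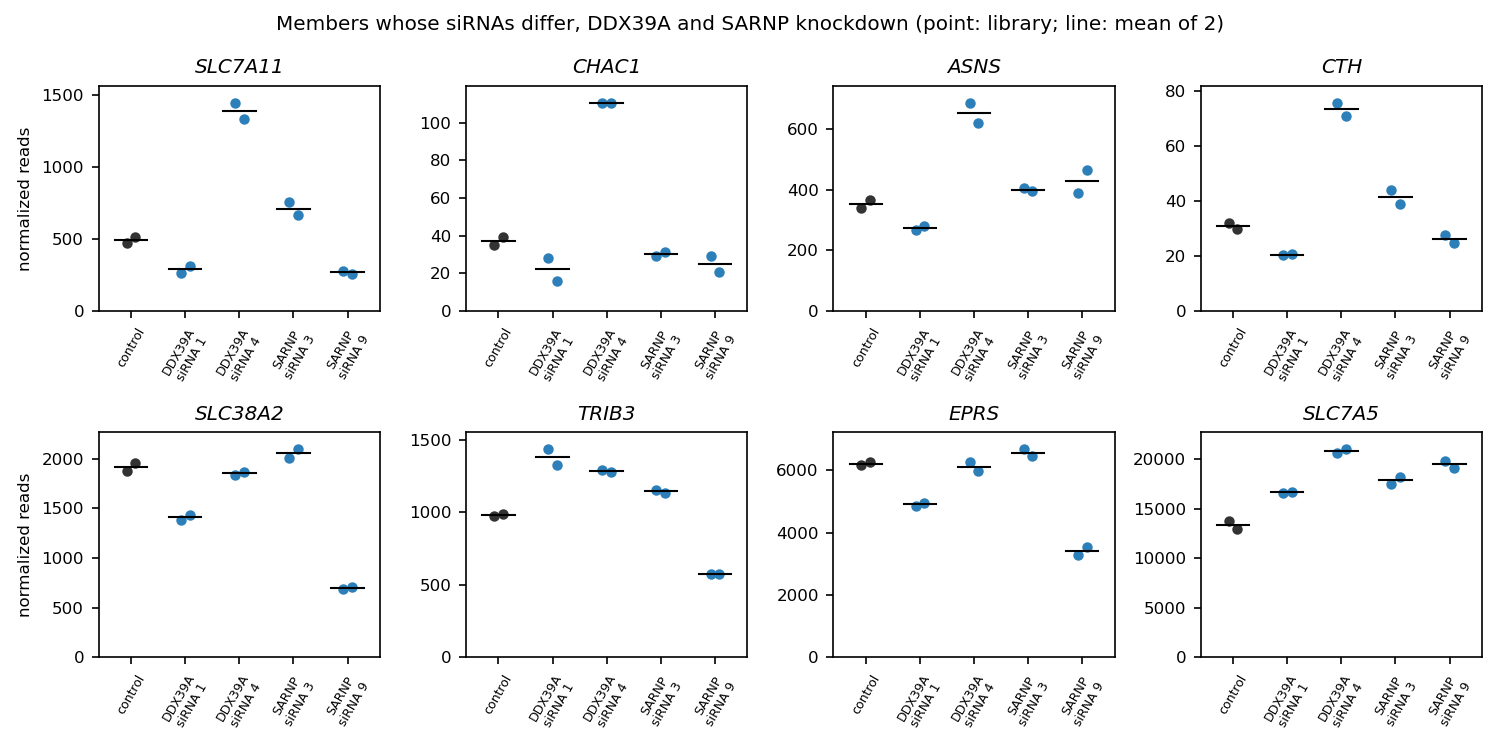
Normalized reads per library (points) and the mean of each group of 2 (lines) for 8 members in controls, DDX39A siRNA 1 and 4 and SARNP siRNA 3 and 9; each axis starts at 0. SLC7A11, CHAC1, ASNS and CTH are highest with DDX39A siRNA 4, SLC38A2, TRIB3 and EPRS are lowest with SARNP siRNA 9, and SLC7A5 is above controls in all 4 knockdowns.

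In all, 11 members were called lower with DDX39A siRNA 1 and higher with siRNA 4, against 602 of 11673 genes called in opposite directions. Besides SLC7A11, CHAC1 and ASNS they were PYCR1, which makes proline (-0.41 and 0.49), PSAT1 (-0.48 and 0.14), MTHFD2 (-0.18 and 0.24), EIF4EBP1 (-0.23 and 0.22), ATF4 itself (-0.34 and 0.15) and the synthetases AARS (-0.37 and 0.29), WARS (-0.21 and 0.48) and MARS (-0.28 and 0.18). PYCR1 was 1885 and 1852 in controls, 1410 and 1392 with siRNA 1 and 2634 and 2603 with siRNA 4, with no overlap between groups. AARS was 3600 and 3438 in controls, 2767 and 2677 with siRNA 1 and 4378 and 4212 with siRNA 4, again with no overlap. ATF4 followed the same order at a smaller size, with 4085 and 4087 in controls, 3373 and 3088 with siRNA 1 and 4439 and 4618 with siRNA 4. Some of these calls did not pass without 1 library: ATF4 with siRNA 4 without its library 2 (adjusted p = 0.079), WARS with siRNA 1 without control library 2 or its own library 2 (0.16 and 0.15), MTHFD2 with siRNA 1 without its library 1 (0.084), PSAT1 with siRNA 4 without control library 2 or its library 1 (0.095 and 0.19), and EIF4EBP1 with siRNA 1 without control library 1 or its library 2 (0.27 and 0.054) and with siRNA 4 without control library 2 or its library 2 (0.24 and 0.18).

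Of the 28 other targets, 6 rose with both DDX39A siRNAs and 0 fell with both, beside 8.67% and 6.374% of all genes. They were VLDLR, TRIB3, SESN2, SLC7A5, PPP1R15A and SLC3A2. SLC7A5 and SLC3A2 are the light and heavy chain of the exchanger that takes up leucine and other large amino acids. SLC7A5 was 13715 and 12909 in controls, 16625 and 16677 with siRNA 1 and 20632 and 21012 with siRNA 4, changes of 0.32 and 0.65 (SE 0.041 each), and SLC3A2 changed by 0.26 and 0.59. TRIB3, a pseudokinase that feeds back on ATF4, was 973.9 and 986.8 in controls, 1434 and 1324 with siRNA 1 and 1290 and 1278 with siRNA 4, changes of 0.49 and 0.39 that did not differ between siRNAs (adjusted p = 0.13). VLDLR, a lipoprotein receptor, changed by 0.40 and 0.88, SESN2, a leucine sensor that restrains mTORC1, by 0.33 and 0.84, and PPP1R15A by 0.30 and 0.64, and in these 3 genes siRNA 4 gave the higher level.

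Of the 19 synthetases, DDX39A siRNA 1 called 2 higher and 9 lower (median -0.06), beside 17.07% and 16.12% of all genes, and siRNA 4 called 7 higher and 8 lower (median 0.01), beside 25.25% and 23.75%. Both called HARS higher (0.18 and 0.13) and LARS, QARS and NARS lower, beside 8.67% and 6.374% of all genes. The 2 siRNAs differed in 17 of 19, 7 of them higher with siRNA 1, beside 50.57% of all genes. LARS, for leucine, was 4036 and 4077 in controls, 3352 and 3496 with siRNA 1 and 2834 and 2698 with siRNA 4, changes of -0.24 (adjusted p = 4e-05) and -0.55 (adjusted p = 5.1e-13). QARS changed by -0.31 and -0.19, and NARS, for asparagine, by -0.17 and -0.18. GARS was 4041 and 4044 in controls and 5714 and 5831 with siRNA 4, a change of 0.51 (SE 0.043, adjusted p = 1.4e-12), and -0.06 with siRNA 1. The split of HARS, LARS, QARS and NARS was 0 higher and 3 lower under quantile normalization. The HARS calls did not pass without siRNA 1 library 1 (adjusted p = 0.056), or, for siRNA 4, without control library 2 (0.11) or either of its own libraries (0.057 and 0.069).

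In the lists around them, both DDX39A siRNAs called 3 of 16 further ATF4-linked genes higher and 1 lower, 1 of 17 upstream genes higher and 1 lower and 2 of 15 ATF6 and XBP1 genes in each direction, beside 8.67% and 6.374% of all genes. The upstream pair was EIF2AK3 (0.43 and 0.67) and EIF2S3, the gamma subunit of eIF2 (-0.23 and -0.55). Of the 16 further ATF4-linked genes, siRNA 1 called 4 higher and 3 lower, beside 17.07% and 16.12% of all genes. With siRNA 4, 11 were called higher and 3 lower, beside 25.25% and 23.75% of all genes. The apoptosis receptor TNFRSF10B changed by 0.29 and 0.67.

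SARNP is a protein of the mRNA export machinery, and its siRNAs use the same 2 control libraries as those of DDX39A. Of 28 other ATF4 targets, siRNA 3 called 11 higher and 3 lower (median 0.11), beside 20.33% and 21.01% of all genes, and siRNA 9 called 15 higher and 6 lower (median 0.13), beside 29.04% and 29.38%. Both called 7 higher (25%) and 0 lower, beside 7.17% and 7.153%. The 7 were SLC3A2, SLC7A5, PPP1R15A, SESN2, VLDLR, ALDH18A1 and PSAT1. Without control library 2 the count was 4 higher and 0 lower.

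SLC7A5 was 17492 and 18246 with siRNA 3 and 19854 and 19082 with siRNA 9, all above its controls of 13715 and 12909, with changes of 0.42 and 0.55 (SE 0.041 each). Its partner SLC3A2 changed by 0.44 and 0.57, and both chains were higher with siRNA 9, the difference of siRNA 3 minus siRNA 9 being -0.12 for SLC7A5 and -0.13 for SLC3A2. SESN2 was 376.6 and 348.1 in controls, 619.9 and 622.1 with siRNA 3 and 414.7 and 440.4 with siRNA 9, changes of 0.78 and 0.24. PPP1R15A changed by 0.27 and 0.51, VLDLR by 0.45 and 0.22, ALDH18A1, the first enzyme of proline synthesis, by 0.25 and 0.17, and PSAT1 by 0.19 and 0.12. The siRNA 9 calls of SESN2 and VLDLR did not pass without control library 2 (adjusted p = 0.095 and 0.1), nor SESN2 without siRNA 9 library 2 (0.083) and VLDLR without siRNA 9 library 1 (0.093). The siRNA 9 call of PSAT1 did not pass without control library 1 (0.067), control library 2 (0.15) or siRNA 9 library 2 (0.25).

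The 2 SARNP siRNAs differed in 30 of 47 members, a share near the 64.14% of all genes that differed. The largest differences were in SLC38A2, SLC7A11, TRIB3 and EPRS, and each was low with siRNA 9. SLC38A2 was 1878 and 1952 in controls, 2011 and 2095 with siRNA 3 and 684.8 and 706.2 with siRNA 9, changes of 0.10 (adjusted p = 0.11, not called) and -1.46 (SE 0.051, adjusted p = 3.8e-24). EPRS, which charges both glutamate and proline, was 6150 and 6255 in controls, 6670 and 6443 with siRNA 3 and 3264 and 3541 with siRNA 9, changes of 0.08 (adjusted p = 0.15, not called) and -0.87 (SE 0.044, adjusted p = 3.3e-19). TRIB3 was 973.9 and 986.8 in controls, 1156 and 1132 with siRNA 3 and 574.0 and 571.3 with siRNA 9, changes of 0.22 and -0.77. The siRNA 9 libraries of these 3 genes lay below every other library of the SARNP comparison.

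In all, 8 members were called in opposite directions by the SARNP siRNAs, against 1517 of 11673 genes. SLC7A11 was 755.6 and 664.2 with siRNA 3 and 278.9 and 256.9 with siRNA 9, on either side of its controls of 468.9 and 515.8, with changes of 0.53 and -0.88. TRIB3, AARS (0.29 and -0.50), QARS (0.24 and -0.21) and CARS, for cysteine (0.19 and -0.26), were also higher with siRNA 3 and lower with siRNA 9. FARSB (-0.21 and 0.32), the hormone gene STC2 (-0.22 and 0.18) and SLC7A1, a transporter of cationic amino acids (-0.17 and 0.11), went the other way. The siRNA 3 call of CARS did not pass without control library 2 (adjusted p = 0.21), and the siRNA 9 call of SLC7A1 did not pass without either control library (0.099 and 0.085) or without siRNA 9 library 1 (0.21).

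Of the 19 synthetases, SARNP siRNA 3 called 5 higher and 5 lower (median 0.02), beside 20.33% and 21.01% of all genes, and siRNA 9 called 8 higher and 7 lower (median -0.001), beside 29.04% and 29.38%. Both called GARS (0.26 and 0.21) and IARS (0.11 and 0.13) higher and WARS (-0.28 and -0.18) and NARS (-0.11 and -0.16) lower, 10.5% in each direction, near the 7.17% and 7.153% of all genes. GARS was 4918 and 4766 with siRNA 3 and 4508 and 4849 with siRNA 9, above controls of 4041 and 4044 in all 4 libraries. Leaving out any 1 of 4 libraries, namely control library 1, control library 2, siRNA 3 library 1 or siRNA 9 library 2, gave a count of 2 in place of 4, and under quantile normalization the split was 3 higher and 1 lower. The IARS call with siRNA 3 did not pass without control library 1 or its own library 1 (adjusted p = 0.19 each), the WARS call with siRNA 9 did not pass without control library 2 (0.2) or its library 2 (0.069), and the NARS call with siRNA 3 did not pass without either control library (0.11 and 0.12) or either of its own (0.053 and 0.24). The IARS call with siRNA 9 had an adjusted p of 0.097 without control library 1.

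ATF4 was 4181 and 4169 with SARNP siRNA 3 (0.03, adjusted p = 0.62) and 3207 and 3309 with siRNA 9 (-0.33, adjusted p = 9.6e-08), against 4085 and 4087 in controls. In the lists around the members, counts stand beside 7.17% and 7.153% of all genes called higher and lower by both siRNAs. Of 15 ATF6 and XBP1 genes, 3 were called higher and 0 lower by both. The 2 siRNAs called 5 others in opposite directions, against 1517 of 11673 genes. EDEM1, a factor of protein disposal in the endoplasmic reticulum, changed by 0.40 and 0.97. Both siRNAs called 1 of 16 further ATF4-linked genes higher and 1 lower, the latter ATF3 (-0.42 and -0.53), and of 17 upstream genes 0 higher and 1 lower, EIF2S3 (-0.13 and -0.41).

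FIBP is a protein that binds acidic fibroblast growth factor. Its siRNAs called 21 and 26 of the 47 members, beside 2660 and 4009 of all 11768 genes tested. Of 28 other ATF4 targets, siRNA 6 called 9 higher and 7 lower (median 0.09), beside 10.78% and 11.82% of all genes, and siRNA 7 called 12 higher and 5 lower (median 0.16), beside 16.6% and 17.46%. Both called PPP1R15A, SLC1A5, XPOT and ALDH18A1 higher and SLC7A5, SLC3A2 and TRIB3 lower, 14.3% and 10.7% of the 28 beside 4.682% and 4.393% of all genes.

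PPP1R15A was 453.5 and 459.4 in controls, 694.2 and 604.9 with FIBP siRNA 6 and 749.6 and 800.8 with siRNA 7, changes of 0.50 and 0.76 (SE 0.074 each). SLC7A5 was 15254 and 14596 in controls, 11164 and 11970 with siRNA 6 and 13014 and 12609 with siRNA 7, changes of -0.37 (adjusted p = 3.5e-11) and -0.22 (adjusted p = 3.2e-06). SLC3A2 fell with it, by 0.25 and 0.16 on the log2 scale, so both chains of the leucine exchanger were below controls in all 4 FIBP libraries. SLC1A5 changed by 0.23 and 0.28, XPOT by 0.29 and 0.22, ALDH18A1 by 0.29 and 0.19 and TRIB3 by -0.34 and -0.16. The TRIB3 call with siRNA 7 did not pass without control library 2 (adjusted p = 0.52), without siRNA 7 library 2 (0.33) or with DESeq2 (0.15).

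Of the 19 synthetases, FIBP siRNA 6 called 3 higher and 2 lower (median 0.03), beside 10.78% and 11.82% of all genes, and siRNA 7 called 8 higher and 1 lower (median 0.11), beside 16.6% and 17.46%. Both called FARSA (0.18 and 0.26), HARS (0.16 and 0.17) and EPRS (0.19 and 0.12) higher and 0 lower, beside 4.682% and 4.393%. Without control library 1 or without siRNA 6 library 2 the count was 1 higher and 0 lower. FARSA with siRNA 6 did not pass without control library 2 (adjusted p = 0.11) or siRNA 6 library 2 (0.3), HARS with siRNA 6 without control library 1 (0.083) or siRNA 6 library 2 (0.07), and EPRS with siRNA 7 without control library 1 (0.097) or siRNA 7 library 1 (0.069).

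The 2 FIBP siRNAs differed in 21 of 47 members, beside 35.66% of all genes. With DESeq2 the count was 16, and the share of all genes was not computed there. SARS, for serine, was 2224 and 2278 in controls, 1724 and 1815 with siRNA 6 and 2509 and 2582 with siRNA 7, changes of -0.35 (adjusted p = 8.7e-08) and 0.18 (adjusted p = 0.0021). MTHFD2 was 3784 and 3750 in controls, 3287 and 3299 with siRNA 6 and 4346 and 4391 with siRNA 7, changes of -0.19 and 0.21. SESN2 was 345.4 and 317.6 in controls, 213 and 297.4 with siRNA 6 and 432.7 and 375.5 with siRNA 7, changes of -0.40 and 0.28. The 2 siRNAs lay on either side of the controls in all 3 genes. ATF5 differed between siRNAs (siRNA 6 minus siRNA 7, -0.41), with -0.28 for siRNA 6 and 0.13 for siRNA 7 (not called). The SESN2 calls did not pass without 1 of the libraries: siRNA 6 without control library 1 (adjusted p = 0.069) or its library 1 (0.37), and siRNA 7 without control library 2 (0.21) or its library 1 (0.27), and the ATF5 call with siRNA 6 did not pass without control library 1 (0.36) or its library 1 or 2 (0.095 and 0.14).

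ATF4 was 3958 and 3959 in controls, 4270 and 4250 with FIBP siRNA 6 (0.11, adjusted p = 0.041) and 3705 and 3687 with siRNA 7 (-0.10, adjusted p = 0.042), and neither call passed without any 1 of its 4 libraries (adjusted p from 0.11 to 0.15). CHAC1 was 29.7 and 24.6 in controls and 46.9 and 59.9 with siRNA 7, a change of 0.95 (adjusted p = 0.003). In the lists around the members, beside the same 4.682% and 4.393% of all genes, both siRNAs called 4 of 16 further ATF4-linked genes higher and 0 lower, with ATF3 at 0.40 and 0.79, and 1 of 16 mitochondrial synthetases lower, IARS2 (-0.16 and -0.10).

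TMEM259 codes for membralin, which sits in the membrane of the endoplasmic reticulum, and its siRNAs share their 2 controls with those of FIBP. They called 11 and 15 of the 47 members, beside 2684 and 2282 of all 11768 genes tested. The count with siRNA 5 was near the share of all genes. Of 28 other ATF4 targets, siRNA 5 called 4 higher and 3 lower (median 0.01), beside 10.83% and 11.98%, and siRNA 6 called 8 higher and 2 lower (median 0.02), beside 9.364% and 10.03%. Both called VLDLR (0.22 and 0.20) and SLC1A5 (0.13 and 0.28) higher, beside 2.558% of all genes. SLC1A5 was 3710 and 3681 in controls, 3942 and 4142 with siRNA 5 and 4534 and 4422 with siRNA 6, with no overlap. VLDLR was 511.8 and 529.4 in controls, 613.3 and 597.6 with siRNA 5 and 558.1 and 644.7 with siRNA 6, and neither of its calls passed with DESeq2 (adjusted p = 0.12 and 0.15). Neither VLDLR nor SLC1A5 was called by both siRNAs without control library 1, control library 2 or siRNA 5 library 2: VLDLR with siRNA 5 had an adjusted p of 0.17, 0.062 and 0.069 there, and SLC1A5 with siRNA 5 had 0.06, 0.078 and 0.18. VLDLR also did not pass with siRNA 5 without its library 1 (0.13), or with siRNA 6 without control library 1 (0.22), control library 2 (0.096) or its library 2 (0.51).

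Among the 19 synthetases, TMEM259 siRNA 5 called 1 higher and 3 lower (median -0.03), beside the 10.83% and 11.98% of all genes, and siRNA 6 called 2 higher and 3 lower (median 0.004), beside 9.364% and 10.03%. Both called RARS higher (0.17 and 0.12) and GARS (-0.13 and -0.26) and YARS (-0.12 and -0.22), for tyrosine, lower, the last beside 2.413% of all genes. RARS was 3516 and 3617 in controls, 4009 and 3992 with siRNA 5 and 3918 and 3840 with siRNA 6. GARS was 4510 and 4583 in controls, 4247 and 4061 with siRNA 5 and 3710 and 3900 with siRNA 6. Under quantile normalization 0 of the 3 were called by both siRNAs, and 1 was called without control library 1, control library 2 or siRNA 5 library 2. RARS with siRNA 6 did not pass without control library 1 (adjusted p = 0.19) or its library 1 (0.17), GARS with siRNA 5 without control library 1 (0.051), control library 2 (0.1) or its library 2 (0.17), and YARS with siRNA 5 without control library 2 (0.24) or its library 2 (0.16).

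The TMEM259 siRNAs differed in 17 of 47 members, beside 32.09% of all genes, and in 9 without siRNA 5 library 1. SLC7A5 was 14273 and 15313 with siRNA 5, overlapping its controls of 15254 and 14596, and 18936 and 18090 with siRNA 6, a change of 0.31 (SE 0.036, adjusted p = 9.2e-09). SLC3A2 changed by -0.06 (not called) and 0.28, SESN2 by 0.41 and 0.01 (not called), and PSPH by -0.0006 (not called) and 0.36. Without control library 2 the SESN2 call with siRNA 5 had an adjusted p of 0.05, and the PSPH call with siRNA 6 had 0.2 without control library 1 and 0.058 and 0.054 without its library 1 and 2. MTHFD2 was called lower with siRNA 5 (-0.13) and higher with siRNA 6 (0.17), the siRNA 5 call not passing without control library 1 (0.1), control library 2 (0.059) or its library 2 (0.19). In the lists around the members, EIF2AK3 was called higher (0.43 and 0.23) and EIF2S2, the beta subunit of eIF2, lower (-0.22 and -0.12) with both siRNAs, 1 of 17 upstream genes in each direction. Of the 16 further ATF4-linked genes, siRNA 5 called 6 higher and 2 lower and siRNA 6 called 0 higher and 2 lower, and DDIT4, an inhibitor of mTORC1, was called lower by both (-0.49 and -0.30). These counts stand beside 2.558% and 2.413% of all genes called by both siRNAs, 10.83% and 11.98% with siRNA 5, and 9.364% and 10.03% with siRNA 6.

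ATF4 mRNA was called higher with 3 siRNAs, called lower with 4 and not called with 3, and its changes ran from -0.35 with TMEM259 siRNA 5 (3103 and 3113, controls 3958 and 3959) to 0.15 with DDX39A siRNA 4. Each of the 3 higher calls was lost under some alternative. SART1 siRNA 4 did not pass under quantile normalization, DDX39A siRNA 4 without its library 2, and FIBP siRNA 6 with DESeq2 (adjusted p = 0.063). The lower call of FIBP siRNA 7 did not pass with DESeq2 (adjusted p = 0.093). With SART1 siRNA 6, 13 of 19 synthetases were called higher and 4 lower, beside 32.49% and 30.46% of all genes. Their median change was 0.18, and 0.059 under quantile normalization. ATF4 changed by 0.05 with that siRNA (not called), and a link between the 2 was not tested. ATF5 was called higher with 0 and lower with 4 siRNAs, with its lowest change with DDX39A siRNA 1 (343.7 and 309.7 in controls, 224.0 and 186.8 after knockdown, a change of -0.67). DDIT3, the pro-apoptotic partner CHOP, was 109.3 and 105.7 in controls of the DDX39A and SARNP table, 151.5 and 144.4 with DDX39A siRNA 1 (0.46, adjusted p = 0.0041) and 154.7 and 159.7 with SARNP siRNA 9 (0.54, adjusted p = 0.00032), and was not called with the other 8 siRNAs. CEBPB was called higher with 2 siRNAs, SART1 siRNA 4 and SARNP siRNA 9, and CEBPG lower with 1, SART1 siRNA 6 (-0.18).

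**Figure D5:**
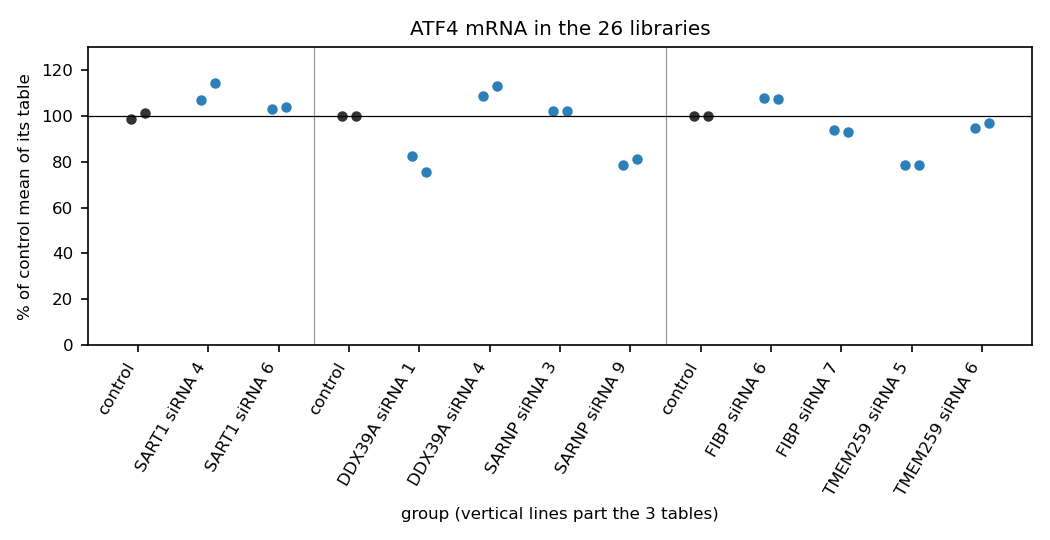
ATF4 normalized reads in each of the 26 libraries as a percent of the mean of the 2 controls of the same table (points; black controls, blue knockdowns; the line marks 100). The lowest libraries belong to DDX39A siRNA 1, SARNP siRNA 9 and TMEM259 siRNA 5.

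Across the 10 siRNAs, PPP1R15A and SLC1A5 were called higher with 8 and lower with 0, ALDH18A1 and HARS higher with 7 and lower with 0, and XPOT higher with 6 and lower with 0. SESN2 was called higher with 7 and lower with 1. LARS was called higher with 0 and lower with 4, QARS higher with 1 and lower with 6, and NARS higher with 1 and lower with 5. SLC7A11 ran from -0.88 with SARNP siRNA 9 to 1.5 with DDX39A siRNA 4, and SLC38A2 from -1.46 with SARNP siRNA 9 to 0.79 with SART1 siRNA 4. SLC7A5 and SLC3A2 were called in the same direction in each knockdown where both were called, higher with both siRNAs of DDX39A and of SARNP and with TMEM259 siRNA 6, and lower with both siRNAs of FIBP. Comparisons within a table share their 2 control libraries, so these counts are not independent. How many of all tested genes reach the same counts was not computed. A single siRNA called 9.364% to 32.49% of all genes higher and 10.03% to 30.46% lower. Some of the calls counted here did not pass under an alternative, among them HARS with SART1 siRNA 6, DDX39A siRNA 4 and FIBP siRNA 6. SLC1A5 with SART1 siRNA 6 and TMEM259 siRNA 5 did not either.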

How the data were processed

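Poly(A) RNA of 26 libraries in 13 groups of 2 was analysed. The submitters' processing notes name the build hg19 and the tools HTSeq, DESeq2, Picard and STAR, with no version. The annotation and the strand counted are not given in the sources used here. For each gene symbol the authors deposited a normalized signal, made from read counts. In every library all values were whole multiples of 1 step (tolerance 0.0001 of a read), so whole reads were recovered for count tests.

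Genes with a table mean of at least 10 were tested with limma 3.58.1 in R 4.3.3 (lmFit, contrasts.fit, eBayes with trend) on log2(value + 1), all groups of a table in 1 fit. This setting understates changes of low genes. Tests were two-sided, and p-values were adjusted over all tested genes (Benjamini-Hochberg). The script was tested on simulated data. Alternatives were a pseudocount of 5, no filter, quantile normalization, a stricter filter (mean of at least 50), DESeq2 1.42.0, edgeR 4.0.16, fewer groups, a replicate block and leaving out each library.

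Members and lists were chosen with earlier results of these data known. Named genes follow a rule: ATF4, members called by both siRNAs of a target (at most 6 synthetases and 8 others in each direction), at most 4 with the largest difference between siRNAs, members called in opposite directions, at most 2 genes of each surrounding list and members with a motif. A gene of a surrounding list is not reported here. Some other members are named beside them after their values were seen. Reads of ATF5, DDIT3, HARS, MARS, MTHFD2, PYCR1, SHMT2, WARS and YARS may be shared with a gene whose exons overlap theirs in GENCODE v29, so these values are uncertain.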

Additional observations from a re-analysis of the deposited data

Results flagged for a closer look

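Each of the following members was called in opposite directions by the 2 siRNAs of 1 target, and the difference between the siRNAs was itself called in limma. Both siRNAs of a target were compared with the same 2 control libraries.

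For DDX39A, the difference of siRNA 1 minus siRNA 4 was -2.33 for CHAC1, -2.27 for SLC7A11, -1.25 for ASNS, -0.90 for PYCR1, -0.62 for PSAT1, -0.49 for ATF4, -0.45 for EIF4EBP1 and -0.42 for MTHFD2. Among the synthetases it was -0.69 for WARS, -0.66 for AARS and -0.46 for MARS. All 11 were higher with siRNA 4.

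For SARNP, the difference of siRNA 3 minus siRNA 9 was 1.4 for SLC7A11, 1.00 for TRIB3, -0.40 for STC2 and -0.28 for SLC7A1. Among the synthetases it was 0.78 for AARS, 0.45 for QARS, 0.45 for CARS and -0.52 for FARSB.

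For FIBP, the difference of siRNA 6 minus siRNA 7 was -0.68 for SESN2, -0.53 for the synthetase SARS, -0.41 for MTHFD2 and 0.20 for ATF4. For TMEM259, siRNA 5 minus siRNA 6 gave -0.30 for MTHFD2.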

How the results depend on the processing

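Under quantile normalization the SART1 synthetases called by both siRNAs went from 15 to 10. Leaving out 1 library at a time, the count for the SARNP synthetases ran from 2 to 4 (4 with all libraries), for the other SARNP targets from 4 to 7 (7), for the FIBP synthetases from 1 to 3 (3), for the TMEM259 synthetases from 1 to 3 (3), for the other TMEM259 targets from 0 to 2 (2), and for members that differ between the TMEM259 siRNAs from 9 to 17 (17). Under quantile normalization 0 TMEM259 synthetases were called by both siRNAs, and with DESeq2 1 other TMEM259 target was. Quantile normalization turned the direction of 4 members with SART1 siRNA 6: SLC7A1 to -0.041, DARS to -0.034, KARS to -0.0 and SLC1A5 to -0.059. The causes were not tested. The replicate numbers do not pair the libraries (correlations of same-numbered libraries from -0.06 to 0.055), and with a replicate block the other TMEM259 targets called by both siRNAs fell from 2 to 1, with 5 of 268 member calls lost. Of the member calls, 35 of 267 were lost with DESeq2 and 1 of 268 with edgeR, and not all of these are named above. With quantile normalization 27 of 268 were lost in the same direction, beside the 4 that turned, which also did not pass. With 2 libraries per group, and with CHAC1 and CTH among the members with the lowest values and largest errors, small changes of such genes may not be detectable.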
